A study of Homo sapiens with 13 samples.

Results

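The genes described here are the targets of the transcription factor ATF4 and the wider amino acid response, measured in HuT78 cells, a T cell line grown from a patient with Sézary syndrome, in which cutaneous T cell lymphoma circulates in the blood. The set holds 33 genes of the 45744 in the count table, each matched by its gene name. The rule uses names and no measured value, but the list was drawn up with earlier results of these data known. They fall into 6 roles: transcription factors, stress effectors, amino acid synthesis, folate one-carbon enzymes, amino acid transporters, and tRNA synthetases with an exportin. Transcript levels were read by RNA sequencing in 13 libraries after 72 h of exposure. Chaetocin at 10 nM had 4 libraries (replicates 1 to 4), F5446 at 10 nM had 3 (replicates 2 to 4), romidepsin at 1 µM had 4 (replicates 1 to 4), and the vehicle DMSO had 2 (replicates 1 and 4). Chaetocin is a fungal compound known to inhibit SUV39H1-family histone methyltransferases, F5446 is known by its code name as an inhibitor of SUV39H1, and romidepsin is a histone deacetylase inhibitor used against this lymphoma. All libraries come from 1 cell line, and the labels do not say whether replicates were separate cultures, so the tests measure only the spread between these libraries.

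ATF4 is the main effector of the integrated stress response. Kinases that sense missing amino acids, misfolded protein, heme shortage or viral RNA phosphorylate the initiation factor eIF2, which slows most translation while ATF4 itself is translated more efficiently. ATF4 then pairs with other basic leucine zipper proteins, C/EBP family members among them, and switches on genes that make, import and charge amino acids. Dividing lymphocytes and lymphoma cells rely on the same genes for asparagine, serine, glycine and proline supply. Because ATF4 is controlled largely at translation, its transcript level is not a measure of its activity, and only transcripts were measured here.

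ATF4 and C/EBP partners bind a composite element whose core is written TGATGNAA, with N standing for any base. Of the 33 genes, 29 matched an entry in the RefSeq promoter table (GRCh38.p14), and 8 of these (27.6%) held the core on either strand in the 250 bases before a transcription start. Of all 27305 genes in that table, 1061 (3.89%) held it in a window of the same length. The 8 stretches are shown because they are where the letters of the element occurred in the searched windows of the 29 matched genes. They run 5′ to 3′ on the strand of the gene, capitals mark the core, and the cores of CHAC1, GARS, AARS and IARS lie on the other strand and so read TTNCATCA. A match is a description of the letters, and no binding was measured.
ASNS (chr7:97872458-97872487, minus strand): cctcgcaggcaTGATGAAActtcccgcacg
ATF3 (chr1:212565205-212565234, plus strand): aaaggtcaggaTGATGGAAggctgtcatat
CEBPG (chr19:33374060-33374089, plus strand): cgcgcggcgtcTGATGCAAcctgccggcaa
CHAC1 (chr15:40953251-40953280, plus strand): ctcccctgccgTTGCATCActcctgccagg
SLC1A5 (chr19:46784893-46784922, minus strand): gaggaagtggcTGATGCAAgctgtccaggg
GARS (chr7:30594834-30594863, plus strand): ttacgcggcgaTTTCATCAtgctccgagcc
AARS (chr16:70289675-70289704, minus strand): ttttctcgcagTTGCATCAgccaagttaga
IARS (chr9:92293698-92293721, minus strand): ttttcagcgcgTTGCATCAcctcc
The first base of the core lay 68 bases before the start of ASNS, 191 before ATF3, 42 before CEBPG, 209 before CHAC1, 97 before SLC1A5, 33 before GARS, 187 before AARS and 13 before IARS. The table lists GARS, AARS and IARS under their current symbols GARS1, AARS1 and IARS1.

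Library totals ran from 19901052 to 30816188 counts, and the 33 genes together took 0.279 to 0.378% of a library. Chaetocin replicate 3 stood apart: on the first principal component of all tested genes (17.8% of the variance) it scored 112.7, where the others lay between -36.7 and 18.7. Mitochondrially encoded genes took 15.9% of its counts, against 5.22 to 12.7% elsewhere, and its share for the 33 genes was the lowest of all. The libraries carried T cell transcripts, with CD3E at a mean of 220.3 CPM (counts relative to the TMM-normalized library total) and 9 of 10 T cell markers above a mean of 1 CPM. CD28 was at a mean of 0.145 CPM with 0 counts in 8 libraries. Of the myeloid markers only ITGAM had a mean above 1 CPM, and CD14 was at 0 in 9 libraries. B cell and fibroblast markers were partly detected, with 3 of 5 and 3 of 5 above a mean of 1 CPM, and epithelial markers fully, with 5 of 5. Of the epithelial markers KRT8, KRT18, EPCAM, CDH1 and KRT5 were at means of 62.8, 25.0, 20.3, 15.2 and 2.93 CPM with counts in every library. Of the B cell markers CD79A, MS4A1 and CD79B were at means of 46.7, 15.4 and 5.15 CPM with counts in every library, and PAX5 was at 0.0155 CPM. Of the fibroblast markers COL1A1, PDGFRB and COL3A1 were at 20.6, 17.6 and 1.81 CPM with counts in every library, and DCN and COL1A2 were at or below 0.0149 CPM. Of 7 Sézary cell markers 6 had a mean above 1 CPM. The summed level of each list overlapped between the libraries of each compound and DMSO, with 2 exceptions for F5446. There the T cell sum was 1241 to 1509 CPM with F5446 against 1070 to 1216 CPM with DMSO, and the myeloid sum 2.33 to 3.17 CPM against 1.55 to 2.11 CPM. Their part in the results was not tested.

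All comparisons were read from 1 edgeR fit over the 17252 genes with enough counts, with p-values adjusted over all of them and a gene called at an adjusted p under 0.05. Of the 33 genes, 32 passed the filter on low counts, and PSAT1 did not. In every comparison 0 of the 32 were called, and 0 of 17252 genes (0%). The edgeR adjusted p of each of the 32 was 1 against DMSO and 0.999 between chaetocin and F5446. DESeq2 and limma-voom called 0 of them too. The results are therefore levels, fold changes and intervals, none past the threshold for the whole table. All comparisons with DMSO share the same 2 DMSO libraries, so these 3 comparisons are not independent of each other.

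In the chaetocin libraries, most of the set had means above DMSO. Of the 32 genes, 27 had a log2 fold change above 0 for chaetocin over DMSO and 5 below, with a median of 0.19 where that of all genes tested was 0.01. At an unadjusted p under 0.05, 4 were higher, against 2.16% of all genes, and 2 were lower, against 1.91%. The 4 were ASNS, SLC3A2, PYCR1 and SARS, and the 2 were WARS and ALDH1L2. All 4 chaetocin libraries lay above both DMSO libraries for 5 of the 32 (ASNS, TRIB3, PYCR1, SLC3A2 and AARS), against 5.22% of all genes, and below both for 1 (ALDH1L2), against 6.09%. ALDH1L2 had 0 counts with chaetocin and passed the filter on low counts only through the other groups. Its place among the lower genes is therefore not support for a difference.

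For F5446 over DMSO the median log2 fold change was 0.09 for the 32 genes, with 26 above 0 and 6 below, where the median of all genes was 0.01. At an unadjusted p under 0.05, 2 were higher (ASNS and PYCR1), against 1.51% of all genes, and 0 were lower, against 0.968%. The F5446 and DMSO libraries did not overlap for 6 genes with F5446 higher (ASNS, TRIB3, PYCR1, MTHFD2, NARS and EPRS), against 9.44% of all genes, and for 0 with F5446 lower, against 9.12%. Romidepsin gave a median of 0.06, with 21 above 0 and 11 below, where the median of all genes was 0.01. Its 2 genes at an unadjusted p under 0.05 with a higher level were ASNS and SARS, against 1.82% of all genes, and 0 were lower, against 1%. Its libraries lay above both DMSO libraries for 3 genes (ASNS, TRIB3 and NARS), against 5.34%, and below both for 0, against 4.98%.

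**Figure D1:**
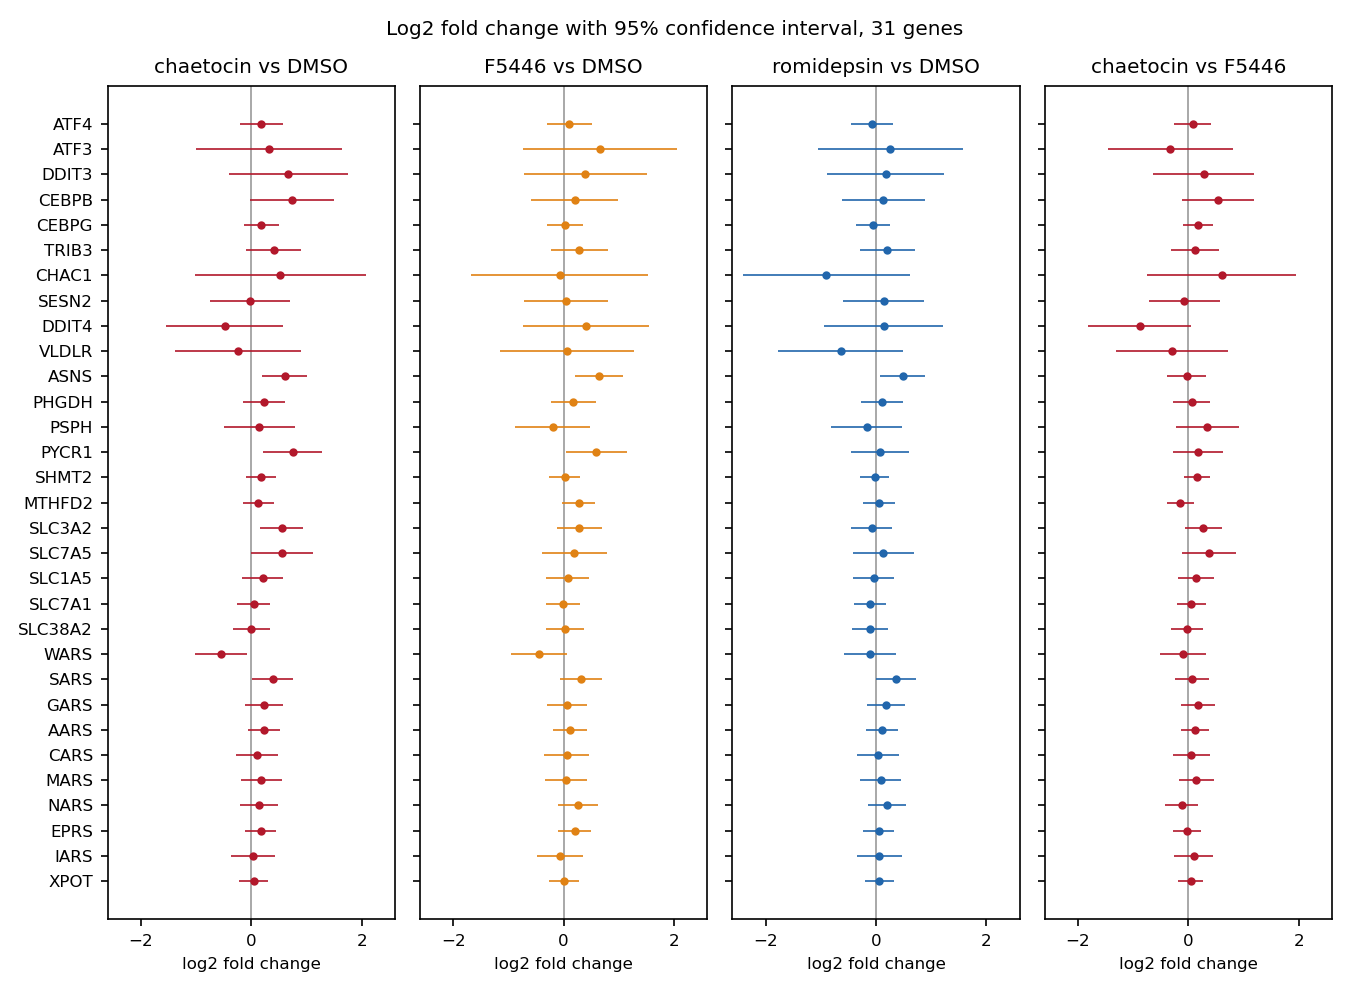
Log2 fold change of each gene (point) with its 95% confidence interval (line) in the 4 comparisons, from the edgeR fit over all genes; the 31 genes with counts in every library are drawn, leaving out PSAT1 and ALDH1L2. The intervals of ASNS lie above 0 in all 3 comparisons with DMSO, and those of ATF3, CHAC1, DDIT3, DDIT4 and VLDLR are the widest.

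The asparagine synthetase gene ASNS, a classic ATF4 target and the enzyme that makes asparagine from aspartate and glutamine, was the member with the most regular difference. It stood at 45.2, 57.5, 58.6 and 44.5 CPM in chaetocin replicates 1 to 4, at 50.2, 61.2 and 46.7 CPM in F5446 replicates 2 to 4 and at 39.7, 55.3, 56.9 and 36.8 CPM in romidepsin replicates 1 to 4, against 35.0 and 32.7 CPM in DMSO replicates 1 and 4. All 11 compound libraries lay above both DMSO libraries, the nearest being romidepsin replicate 4. The log2 fold change over DMSO was 0.60 (95% CI 0.19 to 1.02) for chaetocin, 0.64 (95% CI 0.21 to 1.07) for F5446 and 0.48 (95% CI 0.07 to 0.89) for romidepsin. With any 1 library left out it was between 0.54 and 0.67 for chaetocin, 0.52 and 0.72 for F5446, and 0.38 and 0.58 for romidepsin. It was smaller, at 0.39, 0.37 and 0.25 in the same order, with the replicate number as a block. Within replicate numbers 1 and 2 the log2 difference was 0.54 for chaetocin, 0.52 for F5446 and 0.42 for romidepsin. Within numbers 3 and 4 it was 0.64, 0.71 and 0.49 in the same order, each set holding 1 DMSO library. The promoter core of ASNS printed above lies 68 bases before its start.

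TRIB3, a pseudokinase induced by ATF4 and by DDIT3 that feeds back on both, was the only other member with all 11 compound libraries above DMSO. This held for 2 of the 32 genes, against 0.945% of all genes, and the reverse for 0, against 1.07%. Its levels were 13.9, 14.1, 10.1 and 10.1 CPM with chaetocin, 12.3, 10.2 and 10.8 CPM with F5446 and 10.8, 10.5, 9.56 and 11.2 CPM with romidepsin, against 9.05 and 9.13 CPM with DMSO. The gap to DMSO was small, 9.56 against 9.13 CPM at its narrowest. The intervals all took in 0: the log2 fold change was 0.41 (95% CI -0.09 to 0.90) for chaetocin, 0.29 (95% CI -0.23 to 0.81) for F5446 and 0.21 (95% CI -0.29 to 0.70) for romidepsin.

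PYCR1 was above DMSO in every library of both SUV39H1-directed compounds. It encodes the mitochondrial reductase that completes proline synthesis, and was at 24.2, 23.9, 43.6 and 27.3 CPM in chaetocin replicates 1 to 4 and 23.5, 32.7 and 23.2 CPM in F5446 replicates 2 to 4, against 18.5 and 16.7 CPM in DMSO replicates 1 and 4. In romidepsin replicates 1 to 4 it was at 15.3, 17.0, 24.7 and 17.0 CPM, a range that took in both DMSO values. The log2 fold changes over DMSO were 0.76 (95% CI 0.22 to 1.29) for chaetocin, 0.59 (95% CI 0.04 to 1.15) for F5446 and 0.07 (95% CI -0.45 to 0.60) for romidepsin. Chaetocin replicate 3 had the highest level of all, and without it the chaetocin value was 0.52. Whether the romidepsin value differs from the other compounds was not tested.

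The serine pathway did not show such a gap. PHGDH, which opens serine synthesis, averaged 123 ± 25.9 CPM with chaetocin (SD, n = 4), 118 ± 24.0 with F5446 (SD, n = 3) and 113 ± 17.2 with romidepsin (SD, n = 4), against 104 ± 2.69 with DMSO (SD, n = 2). Its log2 fold changes were 0.23, 0.17 and 0.11. PSPH, the phosphatase that ends the pathway, had log2 fold changes of 0.15, -0.19 and -0.17 in that order, with libraries between 8.71 and 23.7 CPM. PSAT1, the transaminase between them, had 0 counts in all 13 libraries, which allows up to 0.00955 CPM over the whole set by counting error alone (3 counts). The aligner, strand setting and annotation release behind the table are not stated, and their part in this 0 was not tested. No row of the table carried the name of a numbered PSAT1 copy.

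**Figure D2:**
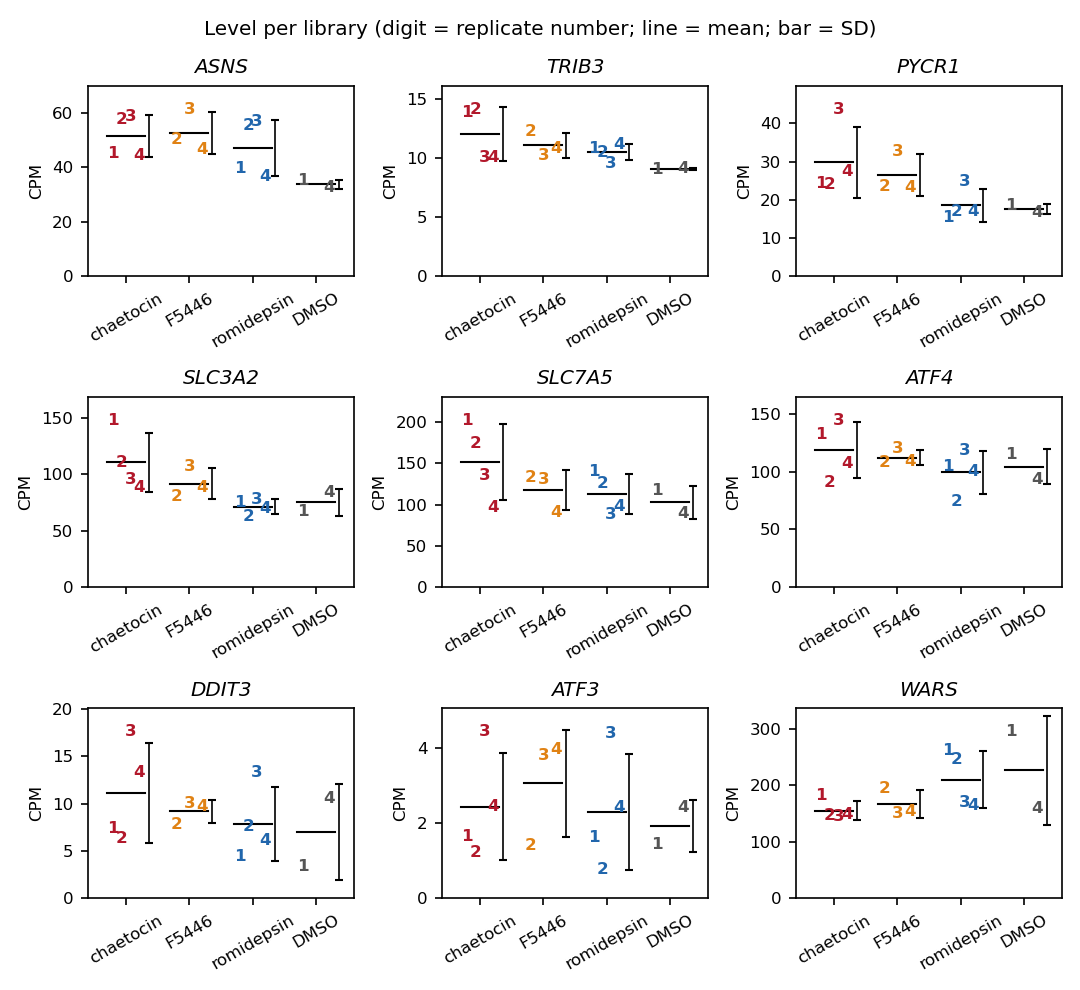
Level of 9 genes in each library, in CPM on a linear axis from 0; digits are replicate numbers, the horizontal line is the group mean and the bar its SD. ASNS and TRIB3 have every compound library above both DMSO libraries, and DDIT3, ATF3 and WARS have DMSO replicates 1 and 4 far apart.

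Among the mitochondrial folate enzymes, which turn serine carbon into one-carbon units, SHMT2 and MTHFD2 were close between groups. MTHFD2, the dehydrogenase of the pathway, was at 281, 303 and 249.7 CPM in F5446 replicates 2 to 4, all above 224 and 235 CPM in DMSO replicates 1 and 4, with a log2 fold change of 0.28 (95% CI -0.03 to 0.58). For chaetocin it was 0.13 and for romidepsin 0.05. SHMT2, which releases the carbon from serine, had log2 fold changes over DMSO of 0.17 for chaetocin, 0.02 for F5446 and -0.03 for romidepsin.

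ALDH1L2, which oxidizes mitochondrial 10-formyl-tetrahydrofolate, was barely counted anywhere but had no count at all with chaetocin. It had 0, 0, 0 and 0 counts in chaetocin replicates 1 to 4 and 11, 9 and 0 in F5446 replicates 2 to 4. Romidepsin replicates 1 to 4 had 15, 10, 11 and 8 counts, and DMSO replicates 1 and 4 had 7 and 12. Only the chaetocin libraries and F5446 replicate 4 were at 0. Set against a floor of 3 counts over the 4 chaetocin libraries (0.0298 CPM), the DMSO level was 15.3-fold and the F5446 level 8.71-fold higher. Only the chaetocin side of these ratios allows for counting error. The DMSO and F5446 levels were taken as measured, the latter with replicate 4 at 0 counts. Of the 32 genes it had the smallest unadjusted p in both comparisons, while its edgeR adjusted p was 1 against DMSO and 0.999 against F5446. With 0 counts in chaetocin, it could pass the filter on low counts only through the other groups. Its rank by p is therefore not support for a difference. The fitted log2 fold changes (-6.48 and -5.55) depend on how zeros are treated. The median over the 32 genes for chaetocin over DMSO was 0.19 also with ALDH1L2 set at the 15.3-fold ratio. In bulk RNA, fewer cells with a transcript and less of it per cell cannot be told apart.

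For 4 of the 5 amino acid transporters the highest level of all libraries was in chaetocin replicate 1. SLC3A2, the heavy chain that carries SLC7A5 and related carriers to the cell surface, was at 147, 111, 95.7 and 88.2 CPM in chaetocin replicates 1 to 4, against 66.8 and 83.6 CPM in DMSO replicates 1 and 4. All chaetocin libraries were above DMSO, with a log2 fold change of 0.56 (95% CI 0.17 to 0.94) that was 0.39 without chaetocin replicate 1. F5446 replicates 2 to 4 were at 80.5, 107 and 87.9 CPM (log2 fold change 0.29) and romidepsin replicates 1 to 4 at 75.2, 62.3, 77.5 and 69.3 CPM (-0.08), both overlapping with DMSO. Without DMSO replicate 4 the romidepsin value was 0.09. Within replicate numbers 1 and 2 the chaetocin difference was 0.93, and within 3 and 4 it was 0.14.

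SLC7A5, the leucine-importing light chain of the same carrier, was at 202, 174, 135 and 96.1 CPM in chaetocin replicates 1 to 4, against 117 and 88.6 CPM in DMSO replicates 1 and 4. Chaetocin replicate 4 lay between the DMSO values, and the log2 fold change was 0.56 (95% CI -0.0044 to 1.12). It was at 133, 129.8 and 90.0 CPM in F5446 replicates 2 to 4 and 140.1, 125, 88.3 and 97.9 CPM in romidepsin replicates 1 to 4. The log2 fold changes over DMSO were 0.19 for F5446 and 0.14 for romidepsin, and without DMSO replicate 4 the romidepsin value was -0.05. SLC1A5, the glutamine carrier, SLC7A1, the arginine and lysine carrier, and SLC38A2, a carrier of small neutral amino acids, had log2 fold changes between -0.11 and 0.21 over the 3 comparisons with DMSO. Taking the 5 transporters together, 5 were above 0 for chaetocin, 4 for F5446 and 1 for romidepsin, with medians of 0.21, 0.07 and -0.08.

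None of the 5 transcription factors had libraries that separated a compound from DMSO. ATF4 was at 133, 90.8, 144 and 108 CPM in chaetocin replicates 1 to 4, at 108, 120.0 and 109 CPM in F5446 replicates 2 to 4 and at 105, 74.6, 119 and 100.1 CPM in romidepsin replicates 1 to 4, against 115 and 93.8 CPM in DMSO replicates 1 and 4. Its libraries overlapped in every comparison, and the log2 fold changes over DMSO were 0.18 (95% CI -0.20 to 0.57) for chaetocin, 0.10 (95% CI -0.30 to 0.51) for F5446 and -0.07 (95% CI -0.45 to 0.31) for romidepsin. CEBPG, a C/EBP protein that pairs with ATF4, was between 53.1 and 77.5 CPM, with log2 fold changes of 0.19, 0.02 and -0.06 in that order.

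DDIT3, also called CHOP, links prolonged stress to cell death. It was at 7.31, 6.26, 17.6 and 13.3 CPM in chaetocin replicates 1 to 4, 7.78, 10.0 and 9.65 CPM in F5446 replicates 2 to 4 and 4.34, 7.55, 13.3 and 6.08 CPM in romidepsin replicates 1 to 4. DMSO replicate 1 had 3.35 CPM and DMSO replicate 4 had 10.6 CPM, a span that every compound group overlapped. The log2 fold change for chaetocin was 0.67 (95% CI -0.41 to 1.75). It was 0.07 without DMSO replicate 1 and 1.72 without DMSO replicate 4. For F5446 (0.39) and romidepsin (0.17) the sign turned without DMSO replicate 1, to -0.22 and -0.43.

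ATF3, a stress-induced member of the ATF family, was at 1.65, 1.22, 4.44 and 2.45 CPM in chaetocin replicates 1 to 4, 1.41, 3.80 and 3.96 CPM in F5446 replicates 2 to 4 and 1.61, 0.750, 4.38 and 2.41 CPM in romidepsin replicates 1 to 4, against 1.44 and 2.42 CPM in DMSO replicates 1 and 4. Every group ranged widely, and the libraries numbered 3 or 4 had the higher values in each. The log2 fold changes were 0.33 (95% CI -0.99 to 1.65) for chaetocin, 0.66 (95% CI -0.73 to 2.05) for F5446 and 0.26 (95% CI -1.06 to 1.58) for romidepsin. Without chaetocin replicate 3 the first was -0.12, and without romidepsin replicate 3 the last was -0.27. CEBPB, a partner of ATF4 and an inflammation factor, was at 8.18, 7.6, 14.7 and 5.79 CPM in chaetocin replicates 1 to 4, 5.62, 8.12 and 5.0 CPM in F5446 replicates 2 to 4 and 5.69, 5.50, 7.55 and 5.01 CPM in romidepsin replicates 1 to 4. DMSO replicates 1 and 4 had 6.95 and 3.91 CPM, and the log2 fold change for chaetocin was 0.74 (95% CI -0.03 to 1.5). It was 0.41 without chaetocin replicate 3, 0.38 without DMSO replicate 4 and 1.21 without DMSO replicate 1. An antisense gene, CEBPB-AS1, had 10.3% as many counts as CEBPB. Whether reads of such pairs were told apart is not known, since no strand setting is stated.

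Of the 5 stress effectors, 2 had a log2 fold change above 0 for chaetocin, 4 for F5446 and 3 for romidepsin. CHAC1, which breaks down glutathione, was at 4.26, 1.25, 2.69 and 2.53 CPM in chaetocin replicates 1 to 4, 1.25, 2.66 and 1.39 CPM in F5446 replicates 2 to 4 and 1.84, 0.05, 1.30 and 0.743 CPM in romidepsin replicates 1 to 4, against 2.11 and 1.59 CPM in DMSO replicates 1 and 4. Romidepsin replicate 2 held 1 count, and all groups overlapped. The log2 fold changes were 0.53 (95% CI -1.02 to 2.08) for chaetocin, -0.07 (95% CI -1.67 to 1.54) for F5446 and -0.90 (95% CI -2.41 to 0.61) for romidepsin. SESN2, a leucine sensor that restrains mTORC1, had values of -0.03, 0.05 and 0.14 in the same order. The receptor gene VLDLR, reported as induced through ATF4 in stressed cells, was at 3.72, 8.25, 13.8 and 11.3 CPM in romidepsin replicates 1 to 4, against 7.23 and 21.7 CPM in DMSO replicates 1 and 4. Its romidepsin log2 fold change of -0.64 (95% CI -1.78 to 0.50) was 0.36 without DMSO replicate 4. The chaetocin value of -0.24 was 0.76 without that library, and the F5446 value of 0.06 was -0.53 without DMSO replicate 1.

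DDIT4, also called REDD1, an mTORC1 inhibitor induced by several stresses, had the most negative chaetocin value of the stress effectors. It was at 109, 122, 123 and 199 CPM in chaetocin replicates 1 to 4, 152, 346 and 268 CPM in F5446 replicates 2 to 4 and 143, 169, 405 and 136 CPM in romidepsin replicates 1 to 4, against 185 and 202 CPM in DMSO replicates 1 and 4. Chaetocin replicates 1 to 3 lay below both DMSO values and replicate 4 between them. The log2 fold change over DMSO was -0.48 (95% CI -1.54 to 0.57) for chaetocin, 0.40 (95% CI -0.74 to 1.54) for F5446 and 0.14 (95% CI -0.93 to 1.22) for romidepsin. Replicate 3 was the highest library of both F5446 and romidepsin. Without it the F5446 value was 0.12 and the romidepsin value turned to -0.37.

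Most tRNA synthetases, the enzymes that load amino acids onto their tRNAs, had means slightly above DMSO. Of the 10 genes in this role, 9 had a log2 fold change above 0 for chaetocin, 8 for F5446 and 9 for romidepsin, with medians of 0.15, 0.06 and 0.07. SARS, the seryl synthetase, was at 142, 132, 105 and 120.3 CPM in chaetocin replicates 1 to 4, 135, 120.0 and 104 CPM in F5446 replicates 2 to 4 and 128, 137, 126 and 101 CPM in romidepsin replicates 1 to 4, against 114 and 76.9 CPM in DMSO replicates 1 and 4. Each compound group had at least 1 library below DMSO replicate 1, and every library lay above DMSO replicate 4. The log2 fold changes were 0.39 (95% CI 0.02 to 0.75), 0.32 (95% CI -0.06 to 0.70) and 0.36 (95% CI 0.002 to 0.73) in that order. Without DMSO replicate 4 they were 0.13, 0.07 and 0.11, and without DMSO replicate 1 they were 0.70, 0.63 and 0.68.

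WARS, the tryptophanyl synthetase, which interferon gamma also induces, had a mean below that of DMSO with all 3 compounds. It was at 181, 146, 144 and 149 CPM in chaetocin replicates 1 to 4, 195, 149.8 and 154 CPM in F5446 replicates 2 to 4 and 261, 245, 170.0 and 164 CPM in romidepsin replicates 1 to 4, against 295 and 158 CPM in DMSO replicates 1 and 4. DMSO replicate 1 had the highest level of all 13 libraries, and DMSO replicate 4 lay inside the chaetocin and F5446 ranges and below all romidepsin libraries. The log2 fold change for chaetocin was -0.55 (95% CI -1.02 to -0.08), and it was -0.02 without DMSO replicate 1. For F5446 it was -0.45 (95% CI -0.94 to 0.05), and 0.07 without that library, and for romidepsin -0.11 (95% CI -0.58 to 0.37), and 0.41 without it.

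NARS, the asparaginyl synthetase, was at 86.5, 101 and 84.4 CPM in F5446 replicates 2 to 4 and 84.3, 88.5, 97.6 and 77.6 CPM in romidepsin replicates 1 to 4, all above 75.1 and 75.9 CPM in DMSO replicates 1 and 4. Its log2 fold changes were 0.26 (95% CI -0.10 to 0.62) for F5446 and 0.20 (95% CI -0.14 to 0.55) for romidepsin, and 0.14 for chaetocin, whose replicate 3 was below DMSO. GARS, the glycyl synthetase, was at 202, 245, 204 and 176 CPM in romidepsin replicates 1 to 4, against 205 and 159 CPM in DMSO replicates 1 and 4, with a log2 fold change of 0.19 (95% CI -0.16 to 0.53). AARS, the alanyl synthetase, had all chaetocin libraries (139 to 174 CPM) above DMSO (128 to 135 CPM), with a log2 fold change of 0.24 (95% CI -0.05 to 0.53). EPRS, the glutamyl-prolyl synthetase, had all F5446 libraries (211 to 262 CPM) above DMSO (199.6 to 209.9 CPM), with 0.20 (95% CI -0.10 to 0.50). CARS, MARS, IARS and the tRNA exportin XPOT had log2 fold changes between -0.07 and 0.19 in the 3 comparisons.

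Setting chaetocin against F5446 at the same dose and time asks where the 2 SUV39H1-directed compounds differ. Over the 32 genes the median log2 fold change was 0.07, with 21 above 0 and 11 below, where the median of all genes was -0.0005. At an unadjusted p under 0.05, 0 were higher, against 1.43% of all genes, and 1 was lower (ALDH1L2), against 1.97%. ALDH1L2 passed the filter on low counts only through groups other than chaetocin. The libraries were separated for 0 genes in either direction, against 2.28% of all genes with chaetocin higher and 3.11% with chaetocin lower. ASNS and PYCR1, which both compounds had above DMSO, differed by -0.03 (95% CI -0.39 to 0.32) and 0.17 (95% CI -0.29 to 0.62) on the log2 scale. These intervals leave room for differences of either sign, so the compounds are not shown to act alike. Without chaetocin replicate 3 the PYCR1 value was -0.07. DDIT4 was lower on average with chaetocin than with F5446 (138 ± 41.1 CPM, SD, n = 4, against 255 ± 98.1 CPM, SD, n = 3), at -0.88 (95% CI -1.82 to 0.05). The DDIT4 value was -0.60 without F5446 replicate 3. CEBPB, SLC7A5, SLC3A2 and SHMT2 had positive values of 0.53, 0.37, 0.27 and 0.15, each with an interval across 0. Without chaetocin replicate 3 the CEBPB value was 0.21, and without chaetocin replicate 1 the SLC7A5 and SLC3A2 values were 0.20 and 0.10. The signs of ATF4 (0.08) and DDIT3 (0.28) turned without chaetocin replicate 3, to -0.02 and -0.02.

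**Figure D3:**
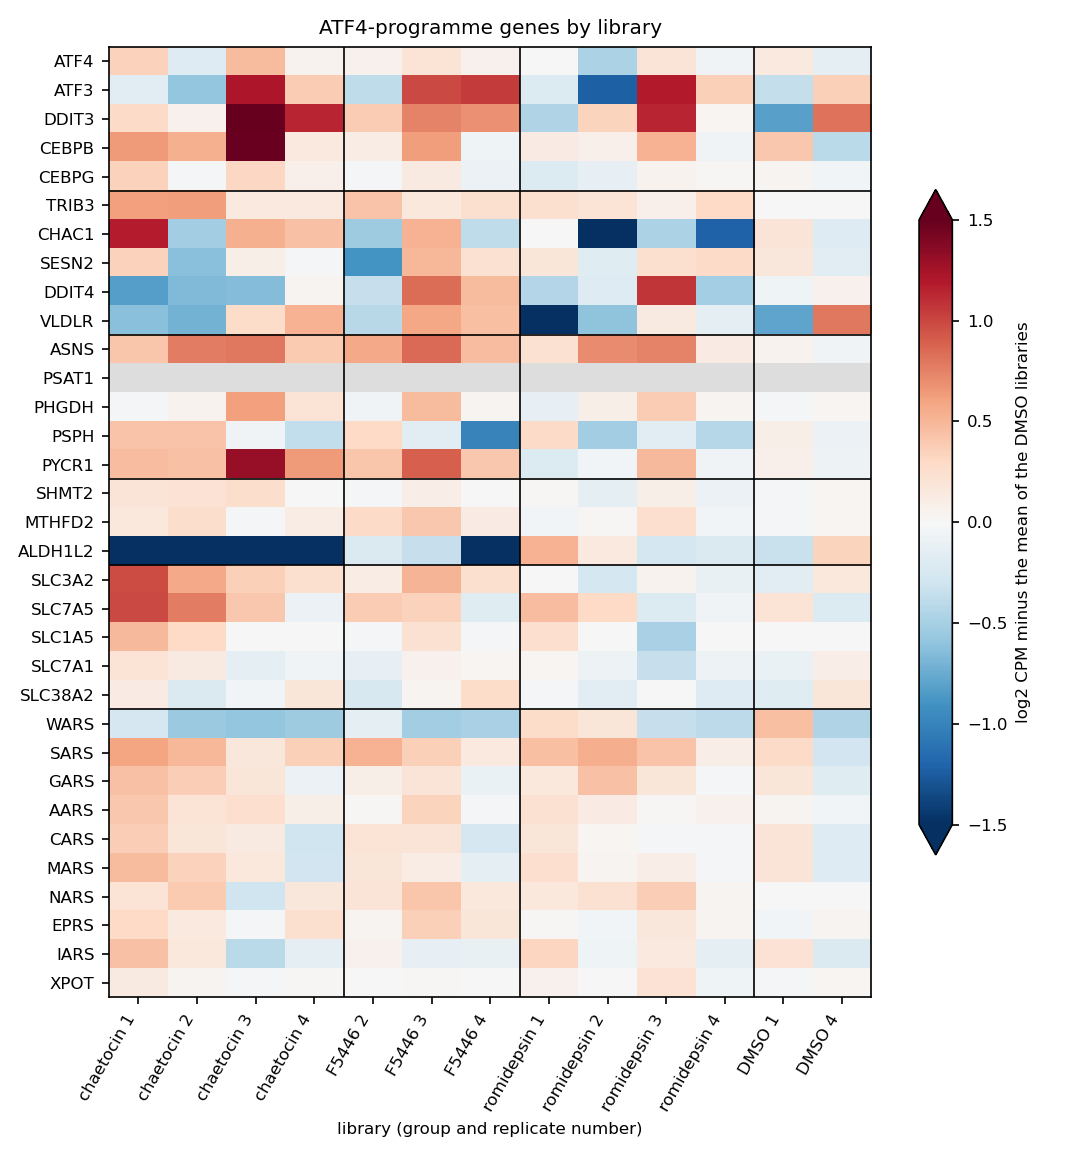
Log2 CPM of each of the 33 genes in each library minus the mean of the DMSO libraries, genes grouped by role and colour clipped at the ends of the scale; PSAT1, with 0 counts, is grey. All 5 transcription factors are above the DMSO mean in chaetocin replicates 3 and 4, F5446 replicate 3 and romidepsin replicate 3. All 5 transporters are above it in chaetocin replicate 1 and F5446 replicate 3. ALDH1L2 is at the low end in all chaetocin libraries and F5446 replicate 4.

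Single libraries held many of the highest levels and carried much of the F5446 and romidepsin medians. Of the 31 genes with counts in every library, chaetocin replicate 1 was the highest of the 13 libraries for 11: CEBPG, CHAC1, all transporters but SLC38A2, and the synthetase genes SARS, AARS, CARS, MARS and IARS. Chaetocin replicate 3 was the highest for 7 others, namely ATF4, ATF3, DDIT3, CEBPB, PHGDH, PYCR1 and SHMT2. F5446 replicate 3 was the highest for 5 (SESN2, ASNS, MTHFD2, NARS and EPRS). Chaetocin replicate 4, by contrast, was the highest for 0 and the lowest for CARS and MARS. The members' median for chaetocin over DMSO was 0.19 without chaetocin replicate 3, 0.13 without chaetocin replicate 1 and 0.23 without chaetocin replicate 4. For F5446 it was 0.0013 without F5446 replicate 3. The romidepsin median was -0.0042 without romidepsin replicate 3. Leaving out 1 library turned the sign of the fold change over DMSO for 7 of the 32 genes with chaetocin, 19 with F5446 and 20 with romidepsin, and for 14 between chaetocin and F5446. The share over all genes was not worked out for the counts of highest libraries and turned signs, so they only describe these members.

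**Figure D4:**
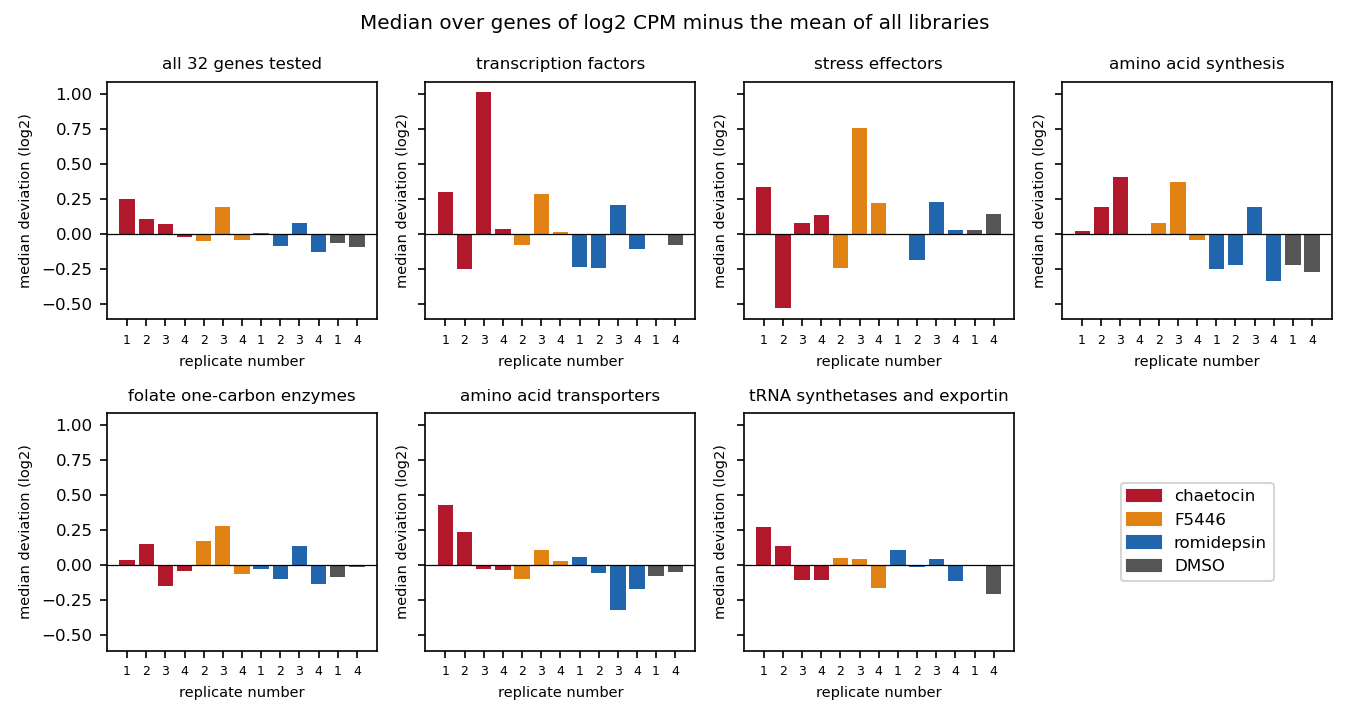
Median over the genes of each role of log2 CPM minus the gene's mean over all libraries, 1 bar per library. The transporter and synthetase medians are highest in chaetocin replicate 1 and the transcription factor median in chaetocin replicate 3.

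Several members, like many of all genes tested, differed between replicate numbers in the same direction in every group. The value given here is the mean log2 CPM of libraries numbered 3 and 4 minus that of libraries numbered 1 and 2, within each group and then averaged over the 4 groups, as a description. What the numbers stand for is not given in the sources used here. The difference was 1.20 for ATF3, 1.19 for VLDLR, 0.95 for DDIT3 and 0.54 for DDIT4, and each was above 0 in all 4 groups. For VLDLR it was 1.07 with chaetocin, 0.94 with F5446, 1.16 with romidepsin and 1.58 with DMSO. The synthetase role went the other way: 8 of 10 genes were below 0 and 6 were below 0 in all 4 groups, with a median of -0.26 where that of all genes was -0.04. These 6 were WARS (-0.50), SARS (-0.34), IARS (-0.33), MARS (-0.29), CARS (-0.28) and GARS (-0.25). SLC7A5 (-0.48) and PSPH (-0.47) were below 0 in all 4 groups as well. Of the 32 genes, 5 (15.6%) were above 0 in all 4 groups, where 16.3% of all genes were, and 8 (25%) were below 0 in all 4, where 17.7% of all genes were. For ASNS the value was -0.01.

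**Figure D5:**
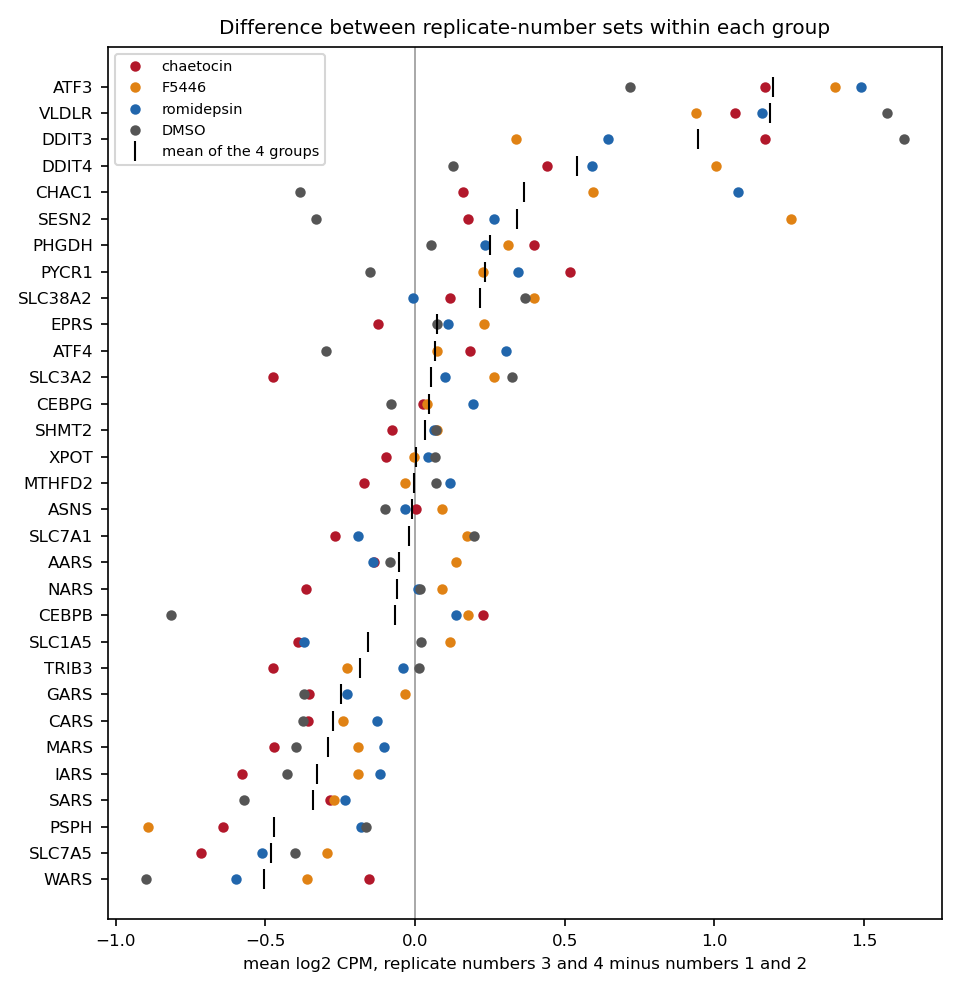
Mean log2 CPM of replicate numbers 3 and 4 minus that of numbers 1 and 2, for each gene within each group (coloured points) and averaged over the 4 groups (black bar); the 31 genes with counts in every library are sorted by the average. ATF3, VLDLR, DDIT3 and DDIT4 lie right of 0 in all groups and WARS, SLC7A5, PSPH, SARS, IARS, MARS, CARS and GARS left of 0 in all groups. Of all genes tested, 16.3% were above 0 and 17.7% below 0 in all 4 groups.

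Since the numbers are unevenly spread over the groups, the comparisons were also read within them. For chaetocin over DMSO the median of the 32 genes was 0.21 in numbers 1 and 2 and 0.14 in numbers 3 and 4. For F5446 it was 0.0014 and 0.21, and for romidepsin 0.02 and 0.08. Between chaetocin and F5446 it was 0.15 in numbers 1 and 2 and -0.05 in numbers 3 and 4. Each set holds 1 DMSO library, and numbers 1 and 2 hold 1 F5446 library. Transporters were above DMSO for chaetocin in numbers 1 and 2 (5 of 5, median 0.40) and not in numbers 3 and 4 (2 of 5, median -0.01). Amino acid synthesis genes had chaetocin medians of 0.36 and 0.51, and F5446 medians of 0.28 and 0.47.

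Other parts of the response were read beside the 33 genes. Their lists were written from general knowledge, but with earlier results of these data known. Of 17 genes of the eIF2 kinases and the eIF2 cycle, which act upstream of ATF4, 0 were called, with median log2 fold changes over DMSO of -0.05 for chaetocin, 0.04 for F5446 and -0.01 for romidepsin. EIF2AK4, the kinase GCN2 that senses uncharged tRNA, was at 65.0 ± 2.37 CPM with chaetocin (SD, n = 4) against 72.9 ± 18.0 with DMSO (SD, n = 2). Of 26 further ATF4 and DDIT3 targets tested, 0 were called, with medians of -0.04, 0.02 and -0.04. The one with the smallest p was ATF5, a stress-induced factor of the ATF4 family, whose log2 fold change was 1.47 (95% CI 0.90 to 2.04) for chaetocin over DMSO (edgeR adjusted p = 0.299), 0.60 (95% CI 0.03 to 1.17) for F5446 over DMSO, -0.03 (95% CI -0.56 to 0.50) for romidepsin over DMSO and 0.86 (95% CI 0.39 to 1.34) for chaetocin over F5446. Its chaetocin level of 276 ± 86.1 CPM (SD, n = 4) compared with 152 ± 42.3 for F5446 (SD, n = 3), 98.0 ± 14.9 for romidepsin (SD, n = 4) and 99.997 ± 0.897 for DMSO (SD, n = 2). CTH, which makes cysteine from cystathionine, was at 21.3 ± 3.19 CPM with F5446 (SD, n = 3) against 16.4 ± 0.403 with DMSO (SD, n = 2).

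The 11 cytosolic tRNA synthetases outside the set had medians of 0.11 for chaetocin, 0.11 for F5446 and 0.03 for romidepsin, with 8 above 0 in each comparison and 0 called. VARS, the valyl synthetase, had log2 fold changes of 0.32 (95% CI 0.04 to 0.60), 0.23 (95% CI -0.06 to 0.52) and 0.27 (95% CI -0.01 to 0.55) in that order. The 17 mitochondrial synthetases, whose role is translation inside the organelle, had medians of 0.05, 0.04 and 0.06, and 0 were called. At an unadjusted p under 0.05 by edgeR in the comparisons with DMSO, the genes of these lists included ATF5 (chaetocin and F5446) and VARS (chaetocin).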

How the data were processed

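RNA was sequenced in 13 HuT78 libraries. Per the submitters' processing notes, bcl2fastq 2.20.0.422, cutadapt 1.8.1 and HTSeq 0.6.1 were used with hg19. Which aligner, strand setting and annotation were used is not given in the sources used here. The authors deposited raw counts per gene. The treatment tags of the F5446 libraries end in different digits, so titles were used for grouping.

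With edgeR 4.0.16 in R 4.3.3, genes were filtered by filterByExpr, scaled by TMM and tested by the robust quasi-likelihood test over all libraries with group as the only term. Tests were two-sided, with Benjamini-Hochberg adjustment over all 17252 genes. CPM use the TMM library size, and log2 CPM a prior count of 2. Depth was 19901052 to 30816188 counts, and floors of 3 counts cover counting error only. Alternatives were RLE and upper-quartile scaling, no filter, a mean of at least 5 CPM, DESeq2 1.42.0, limma-voom (limma 3.58.1), a non-robust fit, a 2-group fit, replicate terms and each library left out. A fit with 1 DMSO library assumes that it varies like the other groups. Recovery was tested on simulated counts, with a separate 200 genes changed in each compound group and no replicate-number effect. Its outcome is not given here.

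Values per library are given for ATF4, ATF3, DDIT3, ASNS, TRIB3 and CHAC1 and, in each comparison, for the 6 members with the smallest p, and up to 3 genes of each other list are named by p. Some genes of those lists are not reported here. Members and lists were chosen with earlier results of these data known. Promoter windows are RefSeq's (GRCh38.p14), searched on both strands for TGATGNAA and used without converting coordinates. Plots were made in Python 3.11.15 with matplotlib 3.10.9.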

Additional observations from a re-analysis of the deposited data

Results flagged for a closer look

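Of 65 tests for a library far from the rest of its group of 4 (Dixon's test at the 95% level), 3 found one, and chance flags about 1 in 20 such groups. DDIT4 was at 199 CPM in chaetocin replicate 4, far above the other chaetocin libraries, and at 405 CPM in romidepsin replicate 3, far above the other romidepsin libraries. WARS was at 181 CPM in chaetocin replicate 1, above the other chaetocin libraries.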

How the results depend on the processing

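None of the 32 genes was called under any alternative that tested it, in any comparison. ATF3, CHAC1 and ALDH1L2 were not tested with the filter at a mean of 5 CPM, nor ALDH1L2 in some 2-group fits. The count of called genes was 0 of 17252 in the main edgeR fit and moved with the method, as did the genes tested under other filters. For chaetocin over DMSO it was 9 with no filter, 10 by DESeq2, 1 by limma-voom, 1 without robust estimation and 7 with a term that separates replicate numbers 1 and 2 from 3 and 4. Over the fits with 1 library left out it ranged from 0 to 2. For F5446 over DMSO it was 1 by DESeq2. For romidepsin over DMSO it was 5 with no filter, 1 by DESeq2 and 1 with that term. For chaetocin over F5446 it was 9 with no filter, 2 by DESeq2 and 5 with that term.

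Deviations of libraries with the same replicate number correlated at 0.0362 to 0.222 (15 pairs, median 0.106). Those of libraries with other numbers correlated at -0.192 to 0.185 (47 pairs, median -0.0684). Each deviation was taken from its group's mean, so those of DMSO replicates 1 and 4 mirror each other. The 47 pairs are therefore not independent, and their median is partly pushed below 0 by this step. The main fit left the replicate number out, and a fit with it as a block was read beside it. With a replicate block the counts of called genes were 10 for chaetocin over DMSO, 1 for romidepsin over DMSO and 11 for chaetocin over F5446. Of the 32 genes, the block turned the sign of 1 for chaetocin, 6 for F5446 and 8 for romidepsin over DMSO, and 3 for chaetocin over F5446. Only some of these are named here, and the share over all genes was not worked out. The block turned the log2 fold changes of CHAC1 (0.59), SHMT2 (-0.010) and VLDLR (-0.22) for F5446 over DMSO. It turned DDIT3 (-0.00016), ALDH1L2 (-0.41), CEBPB (-0.041), DDIT4 (-0.097), MTHFD2 (-0.010) and PYCR1 (-0.12) for romidepsin over DMSO, and ASNS (0.023) for chaetocin over F5446. Settings other than the block and a left-out library turned 1 gene for chaetocin, 7 for F5446 and 2 for romidepsin over DMSO. They turned 2 for chaetocin over F5446, and again only some are named. The term for numbers 1 and 2 against 3 and 4 turned VLDLR (F5446, -0.00538) and ALDH1L2 (romidepsin, -0.053). Upper-quartile scaling turned SHMT2 (F5446, -0.0092) and limma-voom DDIT4 (romidepsin, -0.00485).

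With 1 library left out, the signs of these genes with values per library turned, and the cause was not tested. For chaetocin over DMSO the range was ATF3 -0.12 to 0.75 and VLDLR -0.82 to 0.76. For F5446 over DMSO the range was CHAC1 -0.49 to 0.14, VLDLR -0.53 to 1.06, GARS -0.11 to 0.24 and CEBPB -0.15 to 0.67. In that comparison it was SHMT2 -0.023 to 0.058, DDIT3 -0.22 to 1.45, WARS -0.82 to 0.065 and ATF4 -0.035 to 0.25. For romidepsin over DMSO the range was ALDH1L2 -0.29 to 0.49, ATF4 -0.21 to 0.087, SHMT2 -0.068 to 0.011, ATF3 -0.27 to 0.68, DDIT3 -0.43 to 1.23, PYCR1 -0.099 to 0.16 and MTHFD2 -0.021 to 0.087. In that comparison it was DDIT4 -0.37 to 0.30, CEBPB -0.22 to 0.60, WARS -0.49 to 0.41, SLC3A2 -0.23 to 0.089, VLDLR -1.23 to 0.36 and SLC7A5 -0.052 to 0.35. For chaetocin over F5446 the range was ASNS -0.11 to 0.088, SARS -0.027 to 0.16, ATF4 -0.018 to 0.19 and DDIT3 -0.024 to 0.48. In that comparison it was PYCR1 -0.066 to 0.35, NARS -0.22 to 0.0043 and WARS -0.18 to 0.030. The median of the 32 genes ranged from 0.13 to 0.23 for chaetocin, 0.0013 to 0.16 for F5446 and -0.0042 to 0.10 for romidepsin over DMSO, and from 0.02 to 0.14 for chaetocin over F5446. With 2 DMSO libraries, either one moves every comparison with DMSO, and ALDH1L2 and CHAC1 rest on few counts.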

Other observations

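Of the 33 genes, 5 had a row for a pseudogene of the same name in the count table (ATF4, ASNS, MTHFD2, SLC7A5 and NARS). The pseudogene rows held between 0 and 0.112% as many counts as the gene itself. Besides CEBPB, antisense genes were counted beside DDIT4 (0.316% of its counts), VLDLR (1.37%) and CARS (0.119%).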
